A study of Mus musculus with 32 samples.

Results

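The genes described here are 10 genes of epithelial adhesion and the simple epithelial cytoskeleton in mouse cultures passing from stem cells to retinal organoids. They were chosen by name, with no measured value in the rule: the cadherin genes Cdh1, Cdh2 and Cdh3, the adhesion gene Epcam, the claudin genes Cldn6 and Cldn7, the keratin genes Krt8, Krt18 and Krt19, and Zeb2, which encodes a repressor of epithelial genes. All 10 symbols were found among the 55492 rows of the deposited table, each in 1 row, and all 10 were among the 16276 genes that passed the filter on low values.

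Polyadenylated RNA was sequenced from embryonic stem cells at day 0 and from retinal organoids at days 2, 4 and 6. WT is the Rx:GFP line, and KO is that line with Mettl3, the gene for the catalytic subunit of the RNA N6-methyladenosine writer, knocked out. The remaining cultures are of the KO line carrying a fusion of METTL3 with a domain named GRBD, kept without or with dexamethasone (Dex, a synthetic glucocorticoid), so both fusion groups share the Mettl3 knockout with KO and differ from it by the fusion as well as by any Dex. In all lines AGN was present at 0.1 µM from the organoid days on (days 2, 4 and 6), and Dex was given at 10 µM at those days; libraries labelled as Dex treated also exist for day 0, for which no dose is given. Each of the 16 groups had 2 libraries, which makes 32, and 1 batch date is given for all of them. Duplicates had their library preparation and sequencing done in separate rounds, separate cultures are not stated, and the p-values therefore measure only the spread between these libraries, which may be technical. Whether each line is 1 clone is not stated either. No WT or KO culture is labelled as given Dex, so Dex itself and its effect on the fusion protein cannot be told apart.

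Cadherins join neighbouring cells through calcium-dependent contacts anchored to actin by catenins. E-cadherin (Cdh1) and P-cadherin (Cdh3) are found in epithelia, and E-cadherin also joins embryonic stem cells to each other, while N-cadherin (Cdh2) takes over in the neural plate, a change known as the cadherin switch. Claudins seal tight junctions, EpCAM is a surface adhesion glycoprotein of epithelia and pluripotent cells, and keratins 8, 18 and 19 form the intermediate filaments of simple epithelia. Zeb2 encodes a zinc finger protein that binds E-box sequences in the promoters of epithelial genes, E-cadherin among them, and is also expressed in the neural lineage.

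Because Zeb proteins bind the E-box with the letters CACCTG, the promoter windows of RefSeq (GRCm38.p6, 250 bases before to 50 after each start) were searched for it on both strands, so that CAGGTG on the printed strand is the same motif. Of the 10 genes, 6 had a window, and in 5 of them at least 1 window held the box, Epcam, Cldn6, Cldn7 and Krt18 among them. Cdh1, Cdh3 and Krt19 were among the genes without a window, so they were not searched. The box was found in 20.2% of all 32851 windows and in at least 1 window of 22.6% of the 27025 genes with one. The windows of Zeb2 and the window of the upstream start of Cldn7 held none. The stretches with a box in these 4 genes are shown because Zeb2 is 1 of the 10 genes and its level is set beside theirs here. A match describes letters and does not show binding. Epcam, with boxes at -187 and -19 from the start site, and Krt18, with a box at -214, are shown as the upstream sequence, and the others as 30 bases, all 5′ to 3′ in the direction of the gene, with the box in capitals.
Epcam, chr17:87635729-87635978, plus strand: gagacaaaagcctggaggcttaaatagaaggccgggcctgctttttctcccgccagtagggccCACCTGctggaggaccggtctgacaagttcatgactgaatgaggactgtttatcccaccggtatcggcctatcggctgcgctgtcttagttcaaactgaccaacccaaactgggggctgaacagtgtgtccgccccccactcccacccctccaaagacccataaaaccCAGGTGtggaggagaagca
Krt18, chr15:102027966-102028179, plus strand: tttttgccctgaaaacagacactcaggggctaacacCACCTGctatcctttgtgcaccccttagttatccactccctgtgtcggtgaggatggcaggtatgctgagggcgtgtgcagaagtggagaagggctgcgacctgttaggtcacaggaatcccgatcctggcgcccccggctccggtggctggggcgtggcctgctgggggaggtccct
Cldn6, upstream box, chr17:23679260-23679289, plus strand: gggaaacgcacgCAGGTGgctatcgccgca
Cldn6, downstream box, chr17:23679385-23679414, plus strand: aatcttagcagtctcttttgCAGGTGagcc
Cldn7, first box, chr11:69965312-69965341, plus strand: tttcttcctcttCACCTGgacgaggagggg
Cldn7, second box, chr11:69965352-69965381, plus strand: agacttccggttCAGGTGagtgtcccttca
The Krt18 stretch above ends where GENCODE M21 begins the gene, 36 bases before the RefSeq start from which -214 is counted. The Cldn6 box at -93 lies upstream of the RefSeq start but inside the gene as GENCODE M21 draws it, which begins 116 bases earlier. The Cldn7 boxes, at -97 and -57, belong to the downstream of its RefSeq starts, and the second Cldn6 box lies at 41, after the start. None of these data measured binding or methylation at these sites.

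In the genome (GRCm38, GENCODE M21) several of the genes are neighbours. Cdh3 (chr8:106510891-106557297) and Cdh1 (chr8:106603351-106670246) lie on the plus strand of chromosome 8, 46.1 kb apart. Krt8 (chr15:101996698-102004482, minus strand) and Krt18 (chr15:102028180-102032027, plus strand) lie 23.7 kb apart and are read away from each other. Epcam (chr17:87635979-87651129) and Cldn6 (chr17:23679249-23682446) are on chromosome 17, Cldn7 (chr11:69964779-69967885) and Krt19 (chr11:100140810-100148665) on chromosome 11, Cdh2 (chr18:16588877-16809246) on chromosome 18 and Zeb2 (chr2:44983632-45117395, minus strand) on chromosome 2. All values cover whole genes with their exons. The Zeb2 gene overlaps the antisense gene Zeb2os, which ran from 0.0 to 4.93 FPKM over the libraries; whether counting used strand is not given in the sources used here, so reads of Zeb2 and Zeb2os may not be told apart. Cdh2 and Krt8 also overlap other genes, Gm15485 and Gm36026, and their reads may likewise not be told apart. The pseudogene copy Krt8-ps was at 0.18 FPKM or below in each library.

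Levels are in FPKM, fragment numbers corrected for the length of the transcript and the depth of the library, as deposited by the authors. Changes are on the log2(FPKM + 1) scale with the standard error (SE) of the fit, and a gene is called changed at a Benjamini-Hochberg adjusted p under 0.05 from limma over all 16276 tested genes. The libraries held an estimated 27.5 M to 53.0 M fragments each (M, mega; median 36.55 M), and 3 fragments on a transcript with 2 kb of countable length correspond to 0.028 to 0.055 FPKM; these limits cover counting error only. Duplicates correlated across genes at 0.9893 to 0.9941. Their squared differences were, at the median, 1.25 to 3.74 times those of counting noise in 15 groups. The value was 9.68 in WT at day 0, a pair that includes the library of lowest depth. Without the second library of that pair, the KO against WT change at day 0 was -0.21 for Cldn7 and -0.44 for Zeb2. With both libraries it was -0.37 for Cldn7 and -0.32 for Zeb2, so the size of both changes depended on that library. With so small a spread, between 26.7% and 81.9% of all genes were called in the comparisons between groups, and each count of members below stands beside the share of all genes called, its background. A count of 10 genes is coarse, and no count below is read as particular to them. Mettl3 mRNA was not lower in libraries labelled KO (37.86 and 37.32 FPKM at day 6, against 36.33 and 35.11 in WT), so the knockout is known here from the labels.

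The first comparison followed the genes through differentiation in WT. Between day 0 and day 6 Cdh2 rose by the most, Cdh1, Cdh3 and Epcam fell, and the claudins, keratins and Zeb2 rose. All 10 genes were called, 7 higher and 3 lower, against a background of 78.1% of all genes (43.6% higher and 34.5% lower). The path was not a straight one. Epcam and Cdh1 were highest at day 2, Cldn6, Cldn7, Krt8 and Krt18 at day 4, and Cdh2, Krt19 and Zeb2 at day 6.

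Cdh2, the gene of N-cadherin, read 1.57 and 1.56 FPKM at day 0, 5.34 and 5.22 at day 2, 26.2 and 26.16 at day 4, and 108.31 and 106.57 at day 6 in WT. Every day stood clear of the day before. From day 0 to day 6 it rose by 5.40 ± 0.04 on the log2 scale (SE, limma adjusted p = 9.73e-26), the largest change of the 10 genes in that comparison. Cdh1, the gene of E-cadherin, read 67.97 and 66.1 FPKM at day 0, 120.58 and 120.23 at day 2, 74.95 and 73.61 at day 4, and 9.77 and 9.48 at day 6. It rose to day 2 by 0.84 ± 0.04, and most of its fall came between days 4 and 6, at -2.83 ± 0.04 (SE, limma adjusted p = 9.48e-21). Cdh3, the gene of P-cadherin, fell at each step, from 15.64 and 15.33 FPKM at day 0 through 12.07 and 11.62 and then 5.02 and 5.07 to 1.67 and 1.63 at day 6. Cdh1 and Cdh3 lie on chromosome 8, whose 858 tested genes had a median day 6 to day 0 change 0.28 lower than that of the other chromosomes in WT (-0.18 against 0.10); the changes of the genes themselves were -2.68 and -2.64, and the part of the shift in them was not tested.

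The ratio of Cdh2 to Cdh1 shows the switch within each library. In WT it was 0.0231 and 0.0236 at day 0, 0.35 and 0.355 at day 4, and 11.1 and 11.2 at day 6. It crossed 1 between days 4 and 6 in WT, KO and the fusion line without Dex. In the fusion line with Dex it was already 1.28 and 1.29 at day 4, where the other lines had 0.31 to 0.508. At day 6 the ratio was lowest in WT and stood at 30.7 and 36.6 in KO, 43.9 and 44 without Dex, and 48.9 and 50.8 with Dex. At that day KO differed from WT in Cdh1 with no call for Cdh2. The fusion line with Dex had more Cdh2 and less Cdh1 than WT. So did the fusion line without Dex (means of 167.78 and 3.82 FPKM), though that group was not tested against WT.

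**Figure D1:**
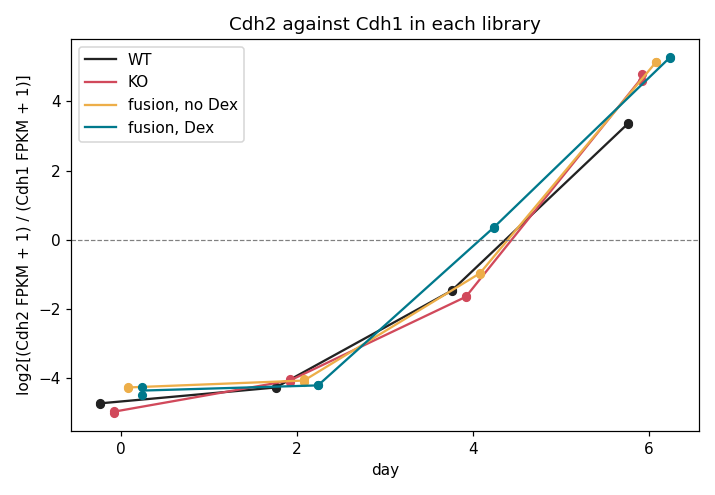
The log2 ratio of (Cdh2 FPKM + 1) to (Cdh1 FPKM + 1) is plotted against day, with 1 point per library and lines through group means; the dashed line marks equal levels and lines are set slightly apart sideways. The fusion line with Dex is the 1 line above equal levels at day 4 (0.35 and 0.36), and WT is lowest at day 6 (3.34 and 3.36).

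Epcam rose in WT by day 2 from 58.89 and 57.88 FPKM to 253.57 and 246.87 (2.08 ± 0.06, limma adjusted p = 5.92e-16), and fell to 137.58 and 147.63 at day 4 and 15.59 and 15 at day 6. Cldn6, a claudin of embryonic epithelia, was at 5.41 and 3.43 FPKM at day 0 and at 112.46 and 109.66 at day 2, a change of 4.39 ± 0.10 (SE, limma adjusted p = 4e-18). It was at 132.06 and 129.68 at day 4 and at 27.7 and 26.74 at day 6. The step from day 2 to day 4 (0.24 ± 0.10, limma adjusted p = 0.0432) lost its call with a pseudocount of 0.1, without the filter, after rescaling, and without any 1 of the 4 libraries. Cldn7, another tight junction claudin, followed the same course, from 1.75 and 2.45 FPKM at day 0 to 57.18 and 55.99 at day 4 and 8.94 and 8.32 at day 6. Both claudins thus ended day 6 above their day 0 level in WT, by 2.41 ± 0.10 for Cldn6 and 1.64 ± 0.10 for Cldn7.

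The keratins held more of their level at day 6. Krt8, the type II keratin of simple epithelia, went from 7.74 and 9.42 FPKM at day 0 to 38.21 and 38 at day 4 and 21.13 and 19.8 at day 6 in WT. Krt18, its type I partner, went from 4.68 and 4.04 to 37.51 and 40.77 and then 25.58 and 24.03. Krt19, a type I keratin of ductal and simple epithelia, started at 2.22 and 2.01, rose to 3.97 in both libraries at day 2 (0.68 ± 0.09, limma adjusted p = 3.34e-06), and reached 16.11 and 14.82 at day 4 and 17.18 and 17.92 at day 6, with no call between the last 2 days (0.17 ± 0.09, limma adjusted p = 0.114). Zeb2 was at 1.29 and 0.96 FPKM at day 0, 0.22 and 0.64 at day 2, 5.8 and 5.81 at day 4, and 11.23 and 11.06 at day 6. Its call between days 0 and 2 (-0.58 ± 0.14) was lost with only those groups in the fit (limma adjusted p = 0.0811).

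**Figure D2:**
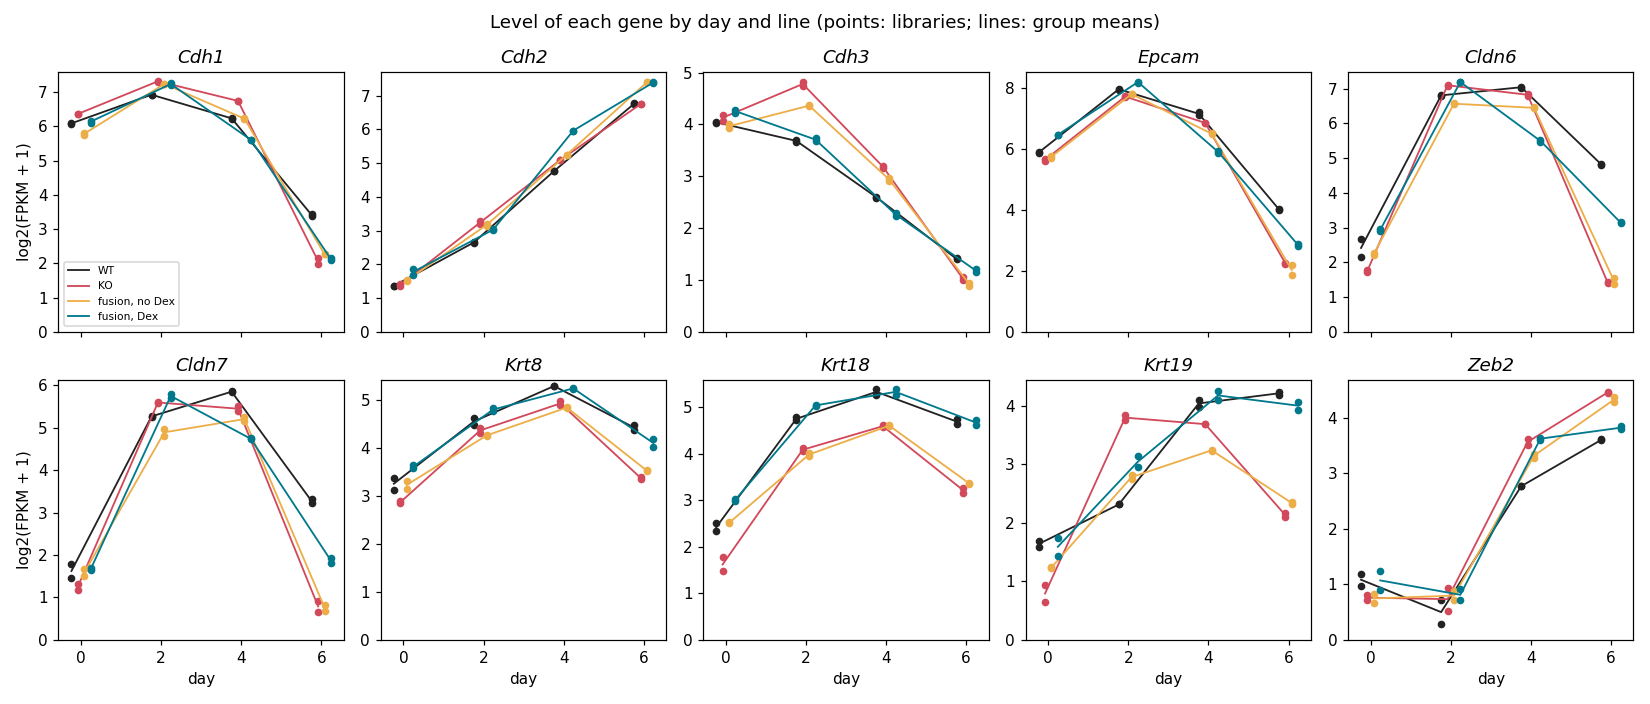
Each panel plots 1 gene as log2(FPKM + 1) against day, with points for libraries and lines through group means of the 4 lines, set slightly apart sideways. Cdh2 and Zeb2 are highest at day 6 in each line, and at day 6 WT lies highest for Cdh1, Epcam, Cldn6, Cldn7 and Krt8.

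The second comparison was between the KO and WT lines, day by day. In stem cells, at day 0, Cdh1 was higher in KO and Epcam, both claudins and the 3 keratins were lower, so that 7 of 10 genes were called, 1 higher and 6 lower, against 48.2% of all genes (18.4% higher and 29.8% lower). Krt19 read 0.57 and 0.91 FPKM in KO and 2.22 and 2.01 in WT, a change of -0.85 ± 0.09 (SE, limma adjusted p = 4.68e-07). Krt18 read 1.77 and 2.41 in KO and 4.68 and 4.04 in WT, a change of -0.80 ± 0.08. With only the KO and WT day 0 groups in the fit, Cldn6, Cldn7 and Krt8 lost their calls (limma adjusted p = 0.121, 0.166 and 0.0982) and 4 genes stayed called.

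At days 2 and 4 the KO and WT cultures again differed in both directions. Of the 10 genes, 9 were called at each day, 6 higher and 3 lower in KO at day 2 (background 58.9%, with 37.5% higher and 21.3% lower) and 4 higher and 5 lower at day 4 (background 60.5%, with 36.5% higher and 24% lower). Krt19 stood out at day 2, with 12.56 and 13.26 FPKM in KO against 3.97 in both WT libraries, a 3.25-fold difference (log2 change 1.48 ± 0.09, limma adjusted p = 9.28e-11). In KO it was thus higher at day 2 than at day 6, when it read 3.47 and 3.3. Cdh3 was also higher in KO at day 2, at 27.21 and 25.78 FPKM against 12.07 and 11.62 in WT (1.10 ± 0.05). Cdh1 was higher in KO at both days, at 157.57 and 159.18 against 120.58 and 120.23 at day 2, and at 106.67 and 105.53 against 74.95 and 73.61 at day 4. Chromosome 8 genes as a whole were shifted upwards in KO relative to other chromosomes. The median shift was 0.16 at day 2 and 0.28 at day 4. Beside it, the differences were 0.39 and 0.51 for Cdh1 and 1.10 and 0.59 for Cdh3. The part of the shift in them was not tested. Krt18 was lower in KO at both days, by -0.67 ± 0.08 and -0.74 ± 0.08. The day 2 calls of Cldn6, Cldn7 and Krt8 were small and did not hold in all settings: rescaling gave limma adjusted p = 0.139 for Cldn6 and 0.075 for Cldn7, and leaving out the second WT day 2 library gave 0.0694 for Cldn6 and 0.3 for Krt8.

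At day 6 the epithelial genes were lower in KO than in WT. Of the 10, 8 were lower, 1 (Zeb2) was higher and 1 (Cdh2) was not called, against a background of 65.1% of all genes called, 34.2% as lower and 30.9% as higher. The median change of the 10 genes was -1.41, beside -0.03 over all genes tested. Leaving out any 1 library kept 9 calls.

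Cldn6 differed most, with 1.7 and 1.63 FPKM in KO and 27.7 and 26.74 in WT, a 16.3-fold lower mean (log2 change -3.40 ± 0.10, SE, limma adjusted p = 2.23e-16). Cldn7 read 0.57 and 0.9 in KO and 8.94 and 8.32 in WT, an 11.7-fold lower mean (-2.48 ± 0.10, limma adjusted p = 4.05e-14). The libraries of the groups did not overlap for either claudin, though the share of all genes without overlap was not counted. Both claudin levels in KO at day 6 lay below those of KO at day 0. Epcam read 3.7 and 3.83 in KO against 15.59 and 15 in WT, a 4.06-fold difference.

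Among the keratins, Krt19 was 5.18-fold lower in KO (3.47 and 3.3 against 17.18 and 17.92 FPKM, -2.08 ± 0.09, limma adjusted p = 2.44e-13). Krt18 was 2.99-fold lower (8.65 and 7.96 against 25.58 and 24.03) and Krt8 2.18-fold lower (9.27 and 9.52 against 21.13 and 19.8). The partner keratins therefore differed unequally: the Krt8 to Krt18 ratio was 1.07 and 1.2 in KO and 0.826 and 0.824 in WT.

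Among the cadherins, Cdh1 was 3.02-fold lower in KO (3.47 and 2.91 against 9.77 and 9.48 FPKM, -1.35 ± 0.04, limma adjusted p = 6.78e-16). Cdh3 was close to 1 FPKM in KO (1.07 and 1) and at 1.67 and 1.63 in WT, a change of -0.38 ± 0.05. Both were lower in KO, while the chromosome 8 median was 0.40 higher than that of the other chromosomes in this comparison. The part of that shift in them was not tested. Cdh2 read 106.45 and 106.61 in KO and 108.31 and 106.57 in WT, with overlapping libraries (-0.01 ± 0.04, limma adjusted p = 0.813; 0.02 after rescaling). Zeb2 read 20.73 and 21.17 in KO and 11.23 and 11.06 in WT (0.85 ± 0.14, limma adjusted p = 1.63e-05), and was also higher in KO at day 4, at 10.37 and 11.31 against 5.8 and 5.81.

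**Figure D3:**
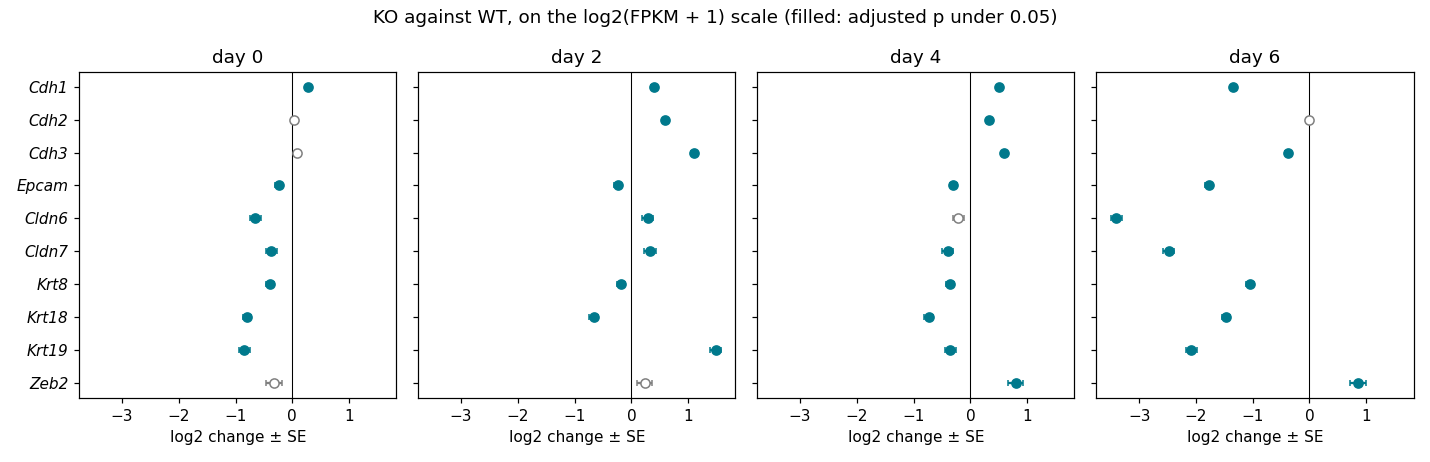
The log2 change (KO against WT, log2(FPKM + 1) scale, bars: SE) of the 10 genes is plotted for each day, filled where called at an adjusted p under 0.05. The day 6 values of Cldn6 (-3.40), Cldn7 (-2.48) and Krt19 (-2.08) lie farthest to the left, and Zeb2 (0.85) lies to the right.

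Markers of other cell types moved along with these differences. A list of 10 genes of extraembryonic endoderm, a simple epithelium, summed to 84.35 to 85.06 FPKM in WT at day 6 and to 12.21 to 12.28 in KO, with all 10 of 10 called lower; in KO, Gata6, Sox7, Afp and Ttr were at 0.05 FPKM or below, while in WT none of the 10 was. Sox17 read 20.48 FPKM on average in WT and 0.18 in KO. The WT sum was already 90.33 to 91.04 at day 2 and 62.16 to 64.72 at day 4, against 6.96 to 6.98 and 9.69 to 9.97 in KO. At those days the KO against WT changes of the epithelial genes went both ways. They were 0.29 and -0.22 for Cldn6, 0.33 and -0.40 for Cldn7, and 1.48 and -0.35 for Krt19. Krt18 (-0.67 and -0.74), Epcam (-0.24 and -0.30) and Krt8 (-0.19 and -0.36) were lower at both days. Cdh1 (0.39 and 0.51) and Cdh3 (1.10 and 0.59) were higher at both days. The 7 pluripotency markers summed to 121.88 to 124.46 in WT at day 6 and 32.52 to 34.83 in KO, with 7 of 7 lower. The 10 markers of surface ectoderm and epidermis summed to 3.2 to 3.57 in WT and 23.99 to 24 in KO, through Tfap2a and Tfap2b, while Trp63, Krt5, Krt14 and Foxi2 were at 0.05 or below in both. The 7 neuroepithelium markers summed to 733.58 to 740.98 in WT and 1081.68 to 1086.51 in KO, through Fabp7 (13.57 in WT and 189.13 in KO) and Vim (153.43 and 321.22), while Sox3 was lower in KO (175.26 and 145.04). The part of these cells in the differences of the epithelial genes was not tested, and in bulk RNA fewer cells of a type and less RNA per cell cannot be told apart.

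**Figure D4:**
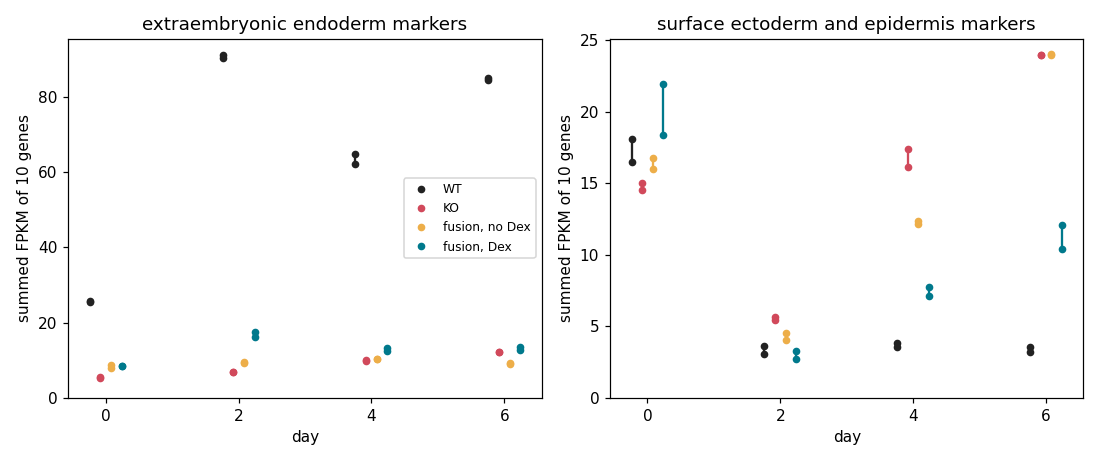
Summed FPKM of 10 extraembryonic endoderm markers (left) and 10 surface ectoderm and epidermis markers (right) is plotted against day, with the lower and the higher library of each group as points joined by a line, set slightly apart sideways. WT lies between 25.46 and 91.04 in the left panel, above each library of the other lines, and lowest at day 6 in the right panel (3.2 to 3.57).

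Other genes of the same structures were counted from lists, to be read beside the 65.1% of all genes called in KO against WT at day 6 (30.9% higher and 34.2% lower). In that comparison, of 14 tested epithelial regulators and surface proteases 2 were higher and 10 lower; Klf5, a transcription factor of epithelia, was at 0.77 FPKM in KO and 6.02 in WT, and the protease inhibitor gene Spint2 at 26.7 and 46.02. Against that direction, Cdc42ep5, an effector gene of the small GTPase Cdc42, was at 30.3 in KO and 7.04 in WT. Of 12 tight junction genes 2 were higher and 6 lower, a share near that of all genes, with F11r, the gene of junctional adhesion molecule A, at 1.8 in KO and 8.26 in WT. Of 9 desmosome genes 1 was higher and 6 lower, among them the plakophilin gene Pkp2 (7.8 against 11.7).

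Of 13 adherens junction genes 3 were higher and 8 lower in KO. Here the cadherins went both ways: Cdh6 fell to 1.91 from 12.3 FPKM and the plakoglobin gene Jup to 4.3 from 10.55, while Cdh11 rose to 46.59 from 21.59. Of 5 tested keratins outside the 10 genes, 2 were lower. Of 6 transcription factors of epithelial-mesenchymal transition 2 were higher and 1 lower; Twist1, a basic helix-loop-helix factor of mesoderm and neural crest, was at 20.14 in KO and 1.57 in WT. Of 11 mesenchymal genes 5 were higher and 5 lower, with the intermediate filament gene Vim at 321.22 against 153.43 and the collagen gene Col1a2 at 1.52 against 7.14. The median changes were -0.52 for the regulators, -0.18 for tight junctions, -0.46 for desmosomes, -0.18 for adherens junctions and -0.32 for mesenchymal genes, beside -0.03 over all genes.

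Cdh1, Cdh3, Epcam, the claudins, Krt8 and Krt18 fell between days 4 and 6 in both WT and KO, and Krt19 in KO. In KO, Cldn6 went from 110.31 and 114.46 FPKM at day 4 to 1.7 and 1.63 at day 6 (-5.41 ± 0.10), while in WT it went to 27.7 and 26.74 (-2.22 ± 0.10). Over days 0 to 6 the change differed between the lines for 9 of 10 genes, more upward in KO for 1 and more downward for 8, against 56.9% of all genes in the same test (31.1% and 25.8%). The difference was -2.75 ± 0.14 for Cldn6, -2.11 ± 0.14 for Cldn7, -1.62 ± 0.06 for Cdh1 and 1.18 ± 0.19 for Zeb2. For Cldn6 and Cldn7 the direction itself differed: both were above their day 0 level at day 6 in WT and below it in KO (-0.35 ± 0.10 and -0.46 ± 0.10).

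The third comparison set the fusion line without Dex against KO, lines that differ by the fusion. At day 0, 8 of 10 genes were called, 6 higher and 2 lower, against 49.1% of all genes (19.3% higher and 29.8% lower). Cdh1 was lower, at 53.23 and 55.06 FPKM against 81.93 and 80.61, and Krt18 higher, at 4.66 and 4.75 against 1.77 and 2.41. With only those groups in the fit 3 genes were called. At day 2, 4 genes were called, all lower in the fusion line (background 37%, with 22.2% lower), with Krt19 at 6.02 and 5.73 against 12.56 and 13.26. At day 4, 6 were called, 1 higher and 5 lower (background 26.7%, with 9.66% higher and 17% lower), with Cdh1 at 73.07 and 74.43 against 106.67 and 105.53.

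At day 6 the fusion line without Dex was near KO for most of the 10 genes. Calls were made for 3 of them, 2 higher and 1 lower, against 49% of all genes (21.1% higher and 27.9% lower). Cdh2 was higher, at 168.31 and 167.24 against 106.45 and 106.61 FPKM (0.65 ± 0.04, limma adjusted p = 6.79e-11). The other calls, Cdh1 (0.20 ± 0.04) and Epcam (-0.22 ± 0.06), were lost with only those groups in the fit, and Epcam also without the first library of the fusion line without Dex (-0.06, limma adjusted p = 0.297). The claudin libraries of these groups overlapped, and the differences of the 3 keratins, 0.14 to 0.21, were not called.

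The fourth comparison asked what changed with Dex in the fusion line, where the labels describe the fusion protein as moving to the nucleus. At day 0, 8 of 10 genes were higher with Dex and none was lower, against 43.4% of all genes called (27.3% higher and 16.1% lower). Epcam read 87.86 and 88.11 FPKM with Dex and 54.21 and 51.82 without (0.72 ± 0.06, limma adjusted p = 3.42e-08). The day 0 calls of Cdh2 and Krt19 were lost with only those groups in the fit (limma adjusted p = 0.109 and 0.135).

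At day 2, 6 genes were higher with Dex and 2 lower (background 44.3%, with 12.7% higher and 31.5% lower). Krt18 read 31.69 and 31.87 FPKM with Dex and 14.42 and 15.17 without, a 2.15-fold difference (1.05 ± 0.08, limma adjusted p = 3.07e-09). Cldn7 read 54.3 and 51.07 with Dex and 30.55 and 26.87 without (0.86 ± 0.10). Cdh3 was lower with Dex, at 11.84 and 12.28 against 19.48 and 19.67. Cdh1 did not differ as deposited (0.00 ± 0.04) and was called higher after rescaling (0.11, limma adjusted p = 0.0304). The calls of Krt19 (0.26 ± 0.09) and Cdh2 (-0.14 ± 0.04) were lost in several settings, Krt19 with a limma adjusted p of 0.0984 under a pseudocount of 0.1 and Cdh2 with 0.435 after rescaling.

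At day 4 the adhesion genes other than Cdh2 went the opposite way to the keratins. With Dex, Cdh1, Cdh3, Epcam, Cldn6 and Cldn7 were lower, Cdh2, Krt8, Krt18 and Krt19 were higher, and Zeb2 was not called (0.31 ± 0.14, limma adjusted p = 0.0825), making 4 higher and 5 lower against 40.2% of all genes (18.3% higher and 21.9% lower). Cldn6 read 43.2 and 45.1 FPKM with Dex and 85.8 and 87.02 without (-0.95 ± 0.10, limma adjusted p = 2.22e-07). Cdh1 read 47.69 and 47.83 with Dex and 73.07 and 74.43 without (-0.62 ± 0.04). Cdh2 read 61.27 and 61.52 with Dex and 37.12 and 37.02 without (0.71 ± 0.04, limma adjusted p = 5.05e-11). Krt19 read 16.07 and 18.16 with Dex and 8.53 and 8.36 without (0.94 ± 0.09, limma adjusted p = 1.94e-07). No libraries of these groups overlapped for any of the 10 genes at day 4, Zeb2 included though it was not called. The share of all genes without overlap was not counted, so this is not read as particular to them. The 7 pluripotency markers summed to 214.58 to 219.19 with Dex and 376.93 to 377.57 without at this day. Most of that difference was in Pou5f1 (85.04 against 217.93 FPKM), and of the 7 markers 5 were called lower and 2 higher. The part of the difference in the lower Cdh1 and Epcam was not tested. The median of chromosome 8 genes was shifted by -0.02, beside changes of -0.62 for Cdh1 and -0.68 for Cdh3; its part in them was not tested.

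At day 6 the claudins, Epcam and the keratins were higher with Dex. Of the 10 genes 7 were higher and 2 lower, against a background of 42.7% of all genes called, 23.8% as higher and 19% as lower. The median change was 0.70, beside 0.01 over all genes. Krt19 read 14.27 and 15.8 FPKM with Dex and 4 and 4.12 without, a 3.7-fold difference (1.66 ± 0.09, limma adjusted p = 5.52e-11). Krt18 read 23.39 and 25.5 with Dex and 9.34 and 9.17 without, 2.64-fold (1.31 ± 0.08, limma adjusted p = 8.77e-11). Cldn6 read 7.9 and 7.82 with Dex and 1.6 and 1.9 without, 4.49-fold (1.69 ± 0.10, limma adjusted p = 6.55e-11).

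Cldn7 was at 2.49 and 2.82 FPKM with Dex against 0.78 and 0.61, Epcam at 6.09 and 6.33 against 2.64 and 3.58, and Krt8 at 15.28 and 17.14 against 10.47 and 10.56. None of these libraries overlapped between the groups, but the share of all genes without overlap was not counted, so this is not read as particular to them. Cdh1 did not share this direction: it read 3.44 and 3.26 with Dex and 3.83 and 3.8 without (-0.15 ± 0.04, limma adjusted p = 0.0071), a call lost with only those groups in the fit (limma adjusted p = 0.139) and without the second Dex library (0.0823). Zeb2 was lower with Dex, at 12.9 and 13.36 against 18.47 and 19.71 (-0.51 ± 0.14, limma adjusted p = 0.005), a call lost with a pseudocount of 0.1 (-0.54, limma adjusted p = 0.172). Cdh2 was at 168.38 and 165.64 with Dex and 168.31 and 167.24 without, with overlapping libraries.

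**Figure D5:**
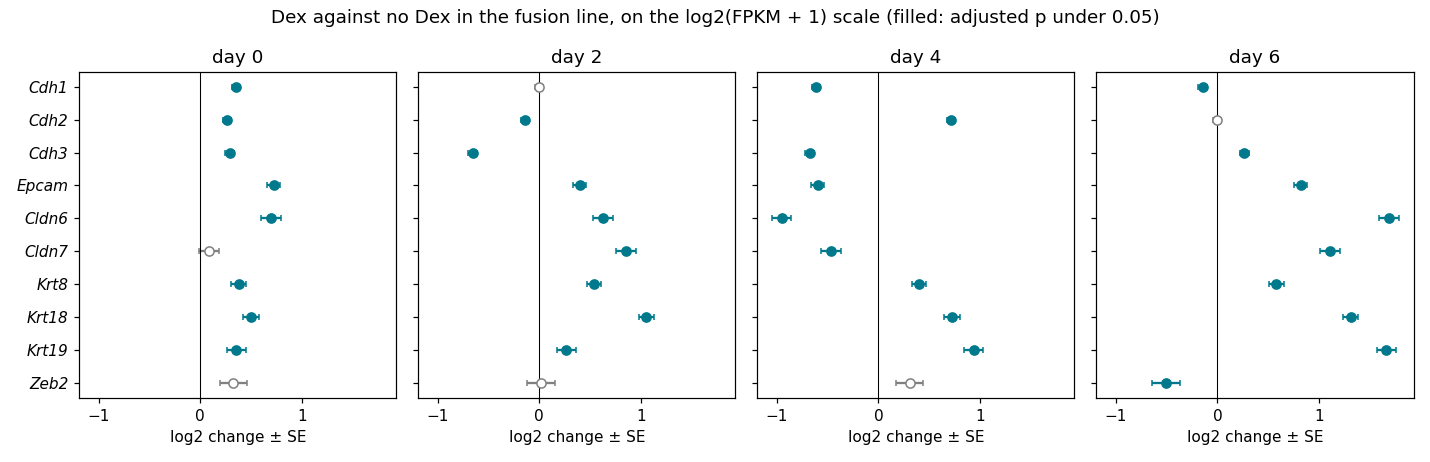
The log2 change (Dex against no Dex, log2(FPKM + 1) scale, bars: SE) of the 10 genes is plotted for each day, filled where called at an adjusted p under 0.05. The claudins lie to the right at days 2 and 6 and to the left at day 4 (Cldn6 0.62, 1.69 and -0.95), while the 3 keratins lie to the right at each day.

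Beside the day 6 difference, the 10 extraembryonic endoderm markers summed to 12.84 to 13.46 FPKM with Dex and 9.04 to 9.17 without, with 7 called higher and none lower, both far under the 84.35 to 85.06 of WT. The 10 surface ectoderm and epidermis markers summed to 10.41 to 12.1 with Dex and 23.96 to 24.03 without, through Tfap2b (4.46 against 17.6). Of the 5 of them tested, 1 was higher, 1 was lower and 3 were not called. The part of either marker list in the result was not tested.

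The lists at day 6 stand beside 42.7% of all genes called in Dex against no Dex (23.8% higher and 19% lower), and with so few genes each, no list is read as apart from it. Of these, 6 of 14 epithelial regulators and surface proteases were higher with Dex and 1 was lower (Cdc42ep5, 26.66 against 36.44 FPKM). Of 9 desmosome genes 5 were higher, Pkp2 among them (14.0 against 9.47), and none was lower. Tight junction genes were split, 3 higher and 3 lower of 12, with the scaffold gene Tjp1 (19.05 against 22.59) lower. Of 13 adherens junction genes 5 were higher and 4 lower, of 5 keratins outside the 10 genes 1 was higher, and of 6 transcription factors of epithelial-mesenchymal transition 2 were higher and 2 lower, Zeb1 (7.48 against 11.2) and Tcf4 (32.69 against 44.0) being the lower ones. Of 11 mesenchymal genes 5 were higher and 4 lower, with the smooth muscle genes Tagln (20.7 against 3.62) and Acta2 (16.35 against 4.34) higher. The median changes were 0.15 for the regulators, 0.18 for desmosomes, -0.13 for tight junctions and 0.09 for mesenchymal genes.

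The last comparison set the fusion line with Dex against WT; it shares the WT libraries with the KO comparison and the Dex libraries with the one before, so the values stand side by side and are not independent. At day 0, 6 genes were called, all higher with Dex and none lower (background 49.8%, with 19% higher and 30.8% lower). At day 2, 8 were called, all higher (background 29.4%, with 12.2% higher), Krt19 by 1.83-fold. The call of Krt8 (0.25 ± 0.07) was lost with only those groups in the fit (limma adjusted p = 0.0969), and its change was 0.17 without the first WT library. Epcam (0.24 ± 0.06) and Krt18 (0.29 ± 0.08) changed by 0.22 and 0.26 without the second WT library. At day 4, 2 were higher and 5 lower (background 44.7%, with 25.7% higher and 19.1% lower). Cdh2 was 2.35-fold higher with Dex and Cldn6 2.96-fold lower at that day, while Krt18 had group means of 39.13 and 39.14 FPKM.

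At day 6 the keratins and the adhesion genes differed in how near to WT they lay. With Dex, Krt18 (23.39 and 25.5 FPKM) overlapped WT (25.58 and 24.03; -0.02 ± 0.08, limma adjusted p = 0.841), and Krt19 (14.27 and 15.8) was not called against WT (17.18 and 17.92; -0.21 ± 0.09, limma adjusted p = 0.059), a difference that was called without the second Dex library (-0.28, limma adjusted p = 0.0471). Krt8 was 1.26-fold lower than WT. The claudins lay between the lines: Cldn6 was 3.46-fold and Cldn7 3.25-fold lower than WT. Cdh1 was 2.87-fold lower than WT, beside 3.02-fold in KO, with the chromosome 8 median shifted by 0.39 in the other direction. Cdh2 was 1.55-fold higher than WT. In all 7 genes were called at day 6, 1 higher and 6 lower, against 61.4% of all genes (29.2% higher and 32.2% lower). A p-value above the threshold does not show that Krt18, Krt19 and Zeb2 (0.22 ± 0.14, limma adjusted p = 0.175) were at the WT level.

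Between days 0 and 6, Dex and no Dex differed in their change for 7 of 10 genes, upward with Dex for 4 and downward for 3, against 48.7% of all genes (22.7% and 25.9%). The change of Krt19 was larger with Dex by 1.31 ± 0.13 and that of Krt18 by 0.81 ± 0.11. Cldn6 and Cldn7 fell below their day 0 level without Dex (-0.79 ± 0.10 and -0.82 ± 0.10) and were not called with Dex (0.21 ± 0.10 and 0.20 ± 0.10), the difference being 1.00 ± 0.14 for Cldn6 and 1.03 ± 0.14 for Cldn7. All 10 genes were called between days 0 and 6 in KO (5 higher, 5 lower; background 80.4%) and without Dex (5 and 5; background 81.9%), and 8 with Dex (5 and 3; background 80.4%). Rescaling moved the median of all genes in this comparison by -0.12 in WT, -0.20 without Dex and -0.15 with Dex, and the small rise of Krt8 without Dex (0.30 ± 0.07) was not called after it (0.04).

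Across the 16 group means of log2(FPKM + 1) the 10 genes fell into sets that moved alike, given here as description because the groups share lines and days. The claudins had a Pearson correlation of 0.99, Cdh1 and Epcam of 0.97, Krt8 and Krt18 of 0.95, and Cdh2 and Zeb2 of 0.93. Zeb2 ran against Cdh3 (-0.91) and Cdh1 (-0.76), which had no promoter window and were not searched for the box. With the 4 genes whose boxes are shown, its values were -0.72 for Epcam, -0.19 for Cldn6, -0.18 for Cldn7 and 0.34 for Krt18. A role of the box in these values was not tested. Cdh1 and Krt18, both epithelial by name, correlated at 0.07.

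Among all tested genes, those most like Cdh1 over the 16 means were Slc27a2 (0.983), Zfp7 (0.979) and Foxh1 (0.978). Those most like Cdh2 were Camk1g (0.995), Mfap2 and Dpysl2 (both 0.994). For Epcam they were Dtx1 (0.977), Lpin3 (0.974) and Cdh1 (0.972), for Krt18 they were Krt8 (0.95), Bhlhe41 (0.945) and Armcx1 (0.941), and for Zeb2 they were Adamts10 (0.984), Fam114a1 and Spg20 (both 0.982).

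The order of the 16 groups differed by gene in the same way. Cdh1 was highest in KO at day 2 (158.38 FPKM on average) and lowest in KO at day 6 (3.19), and 4 of the 15 pairs of neighbours in the order had overlapping libraries. Cdh2 was highest without Dex at day 6 and lowest in WT at day 0, with 2 overlapping pairs of neighbours. Epcam was highest with Dex at day 2 and lowest without Dex at day 6, with 1 such pair, and Cdh3, highest in KO at day 2 and lowest without Dex at day 6, also had 1. Cldn6 was highest with Dex at day 2 and lowest in KO at day 6, with 3 such pairs, and Cldn7 highest in WT at day 4 and lowest without Dex at day 6, with 4. Krt8 and Krt18 were highest in WT at day 4 and lowest in KO at day 0, with 3 and 6 such pairs. Krt19, highest in WT at day 6 and lowest in KO at day 0, had 4. Zeb2, highest in KO at day 6 and lowest in WT at day 2, had 9, most of them among the day 0 and day 2 groups, where it was at 1.36 FPKM or below.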

How the data were processed

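FPKM per gene for 32 libraries were deposited by the authors in a single table. The submitters' processing notes name STAR, Cuffdiff and the build mm10, with no versions; annotation and strand setting are not given in the sources used here. Sample groups follow the labels. Gene positions came from GENCODE M21 (99.4% of row identifiers matched) and promoter windows from RefSeq.

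A gene was tested when at least 2 libraries reached 1 FPKM. With R 4.3.3 and limma 3.58.1, log2(FPKM + 1) was fitted with 16 group means (16 residual degrees of freedom, eBayes with a mean-variance trend), and 28 comparisons were adjusted by Benjamini-Hochberg over 16276 genes, two-sided. The +1 understates changes of low genes. Alternatives were a pseudocount of 0.1, no filter, median-of-ratios rescaling, only the compared groups in the fit (2 residual degrees of freedom for pairs of groups), the replicate number as a block, and each library left out in turn. The spacing of low FPKM values gave an estimate of depth. In each library 88.3% to 92.1% of these values came within 0.2 of a whole number of fragments, where 40.0% would do so at random. The fit was tested on simulated data. Figures were drawn with Python 3.11.15 and matplotlib 3.10.9.

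The 10 genes, the lists and the rules were chosen with earlier results of these data known. Named beside the 10 genes were at most the 2 largest called rises and 2 largest called falls per list among genes reaching 5 FPKM in a group at day 6, for KO against WT and Dex against no Dex, and the 3 genes with the highest Pearson correlation to Cdh1, Cdh2, Epcam, Krt18 and Zeb2. Mettl3 and the marker genes given beside results were also named. Some items within these rules are not reported here.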

Additional observations from a re-analysis of the deposited data

Results flagged for a closer look

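For the following genes the difference between lines or treatments was itself different at day 6 and at day 0, by limma's interaction term with Benjamini-Hochberg adjustment over 16276 genes. Values are the day 6 minus day 0 change in the first group less that in the second, on the log2(FPKM + 1) scale. For KO less WT they were -1.62 for Cdh1, -0.468 for Cdh3, -1.532 for Epcam, -2.75 for Cldn6, -2.108 for Cldn7, -0.659 for Krt8, -0.672 for Krt18, -1.235 for Krt19 and 1.176 for Zeb2. The keratins and claudins were already lower in KO at day 0, and these values are the further difference at day 6. The day 0 calls of Cldn6, Cldn7 and Krt8 were lost with only the compared groups in the fit. Cdh1 was higher in KO at days 0, 2 and 4 and lower at day 6.

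For Dex less no Dex they were -0.499 for Cdh1, -0.264 for Cdh2, 0.996 for Cldn6, 1.025 for Cldn7, 0.811 for Krt18, 1.31 for Krt19 and -0.832 for Zeb2. Cdh1 and Cdh2 were higher with Dex at day 0, and at day 6 Cdh1 was lower and Cdh2 was not called. With 2 libraries a group, no sample could be tested as an outlier.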

How the results depend on the processing

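Over all 28 comparisons the counts of called members kept within 1.5 times of the reported value under a pseudocount of 0.1, no filter, rescaling and each left-out library. With only the compared groups in the fit, which has fewer residual degrees of freedom, the members called were 4 for KO against WT at day 0, 3 for the fusion without Dex against KO at day 0 and 1 at day 6. All genes called were then 3357 for KO against WT at day 0, 3941 (day 2) and 2284 (day 4) for the fusion without Dex against KO, and 4342 (day 0) and 2603 (day 2) for the fusion with Dex against WT. Of 280 changes of members, 1 turned direction with a pseudocount of 0.1 (the day 6 minus day 0 difference of Cdh3 between Dex and no Dex, 0.163) and 7 after rescaling: Cdh2 in KO against WT at day 6 (0.024), Zeb2 in the fusion without Dex against KO at day 0 (0.042), Cdh1 in Dex against no Dex at day 2 (0.114), Krt19 (0.004) and Zeb2 (0.028) in the fusion with Dex against WT at day 0, Krt18 there at day 6 (0.014), and the same difference of Cdh3 (0.036). None of these was called as reported, and the cause was not tested.

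With 1 library left out, 16 changes that were not called turned direction. Their ranges were for Dex against no Dex -0.024 to 0.021 (Cdh1) and -0.083 to 0.114 (Zeb2) at day 2, and -0.018 to 0.005 for Cdh2 at day 6. In the day 6 minus day 0 difference of Dex and no Dex they were -0.067 to 0.015 for Cdh3 and -0.066 to 0.265 for Epcam, whose highest value, without the second day 6 library without Dex, was called (limma adjusted p = 0.000498). In the fusion with Dex against WT they were -0.12 to 0.207 for Cldn7, -0.2 to 0.106 for Krt19 and -0.18 to 0.156 for Zeb2 at day 0, -0.001 to 0.049 for Cdh3 at day 2 and -0.081 to 0.039 for Krt18 at day 6. In the fusion without Dex against KO they were -0.091 to 0.063 for Zeb2 at day 0, -0.144 to 0.271 for Zeb2 at day 2, -0.014 to 0.037 for Krt18 at day 4, and -0.035 to 0.122 for Cldn6 and -0.167 to 0.109 for Cldn7 at day 6. For Zeb2 between days 0 and 2 in KO it was -0.234 to 0.181. A lone library left in a group was assumed to vary like the other groups.

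The replicate numbers did not pair the libraries: over 120 pairs of groups the duplicate differences correlated at -0.09 to 0.13. A fit with the replicate number added as a block kept all 280 changes in their direction and call and all counts within 1.5 times. Zeb2 at days 0 and 2 and the claudins of KO and the fusion without Dex at day 6 were at 0.22 to 1.9 FPKM. These levels lie above the 0.028 to 0.055 FPKM of 3 fragments, and the +1 understates changes at them.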
